A study of Mus musculus with 91 samples.

Results

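The comparison described here is *Dnmt*-null against *Dnmt3a/3b*-DKO in the epiblast (Epi) of E7.5 mouse embryos, over all mature miRNAs. Both genotypes lack DNMT3A and DNMT3B, so the difference between them is the added loss of DNMT1. The 3 *Dnmt*-null and 4 *Dnmt3a/3b*-DKO small RNA libraries were chosen by their titles, and they are 7 of the 91 libraries of the series. The series profiled miRNAs in Epi and extraembryonic ectoderm (Exe) of E6.5 and E7.5 embryos of 4 genotypes, and in haploid embryonic stem cells and the embryos made with them. The table of the series lists 1504 mature miRNAs, of which 652 had enough counts in the E7.5 Epi libraries to be tested.

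The strain label of the E7.5 Epi libraries is a C57BL/6 male crossed to an F1 female. Per the study's methods, the zygotes came from B6D2F1 females, a cross of C57BL/6J and DBA2, mated to *Oct4-EGFP* males on a C57BL/6J background, so all genotypes share this reporter and the mixed maternal background. The mutations were made in zygotes by injecting a cytosine base editor with guide RNAs that write a stop codon into *Dnmt1* (*Dnmt1*-KO), into *Dnmt3a* and *Dnmt3b* (*Dnmt3a/3b*-DKO), or into all of them (*Dnmt*-null, titled TKO). The embryos are thus edited founders and not offspring of a bred line. Epi and Exe of E7.5 embryos were separated with a needle. Neither the number of embryos in a library nor their sex is given in the sources used here, and nothing in the labels says that the libraries of a group are separate litters, so p-values measure only the spread between these libraries. The *Dnmt* transcripts are not measured in a miRNA table, so the genotypes could not be checked in it. The 3 control and 4 *Dnmt1*-KO libraries of E7.5 Epi were part of the same fit, and they gave the effect of losing DNMT1 while DNMT3A and DNMT3B are present.

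DNMT3A and DNMT3B place methyl groups on unmethylated DNA after implantation, and DNMT1 copies the marks to the new strand at each cell division. A miRNA pairs with target mRNAs mainly through its seed, bases 2 to 8 from the 5′ end, so miRNAs with the same seed can bind overlapping sets of mRNAs even when they come from different genes. The epiblast is the tissue that gives rise to the embryo proper, and from it mesoderm and definitive endoderm form during gastrulation. The miR-290-295 and miR-302 clusters are the classic miRNAs of pluripotent cells, the former already abundant in early embryos and the latter typical of the postimplantation epiblast.

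The following mature sequences, from RefSeq (GRCm38.p6), are those on which the results turn, with the seed in capitals. The first 4 are 3p arms of the pluripotency clusters that share 1 seed.
miR-302b-3p: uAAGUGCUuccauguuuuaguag
miR-302d-3p: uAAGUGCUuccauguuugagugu
miR-294-3p: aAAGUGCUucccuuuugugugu
miR-295-3p: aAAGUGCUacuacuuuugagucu
The next share the seed of the miR-125 family, which miR-351 of the X-linked miR-322 and miR-503 cluster also carries.
miR-351-5p: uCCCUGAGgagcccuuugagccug
miR-125a-5p: uCCCUGAGacccuuuaaccuguga
miR-125b-5p: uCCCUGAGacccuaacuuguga
The miR-10 arms from the *Hox* clusters and miR-99b, encoded beside miR-125a, begin with similar but different seeds.
miR-10a-5p: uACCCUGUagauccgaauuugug
miR-10b-5p: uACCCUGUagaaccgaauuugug
miR-99b-5p: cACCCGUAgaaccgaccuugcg
Both arms of miR-483 are shown because neither had a count in *Dnmt*-null Epi.
miR-483-5p: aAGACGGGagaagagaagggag
miR-483-3p: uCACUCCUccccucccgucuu
The last 2 are arms of the imprinted *Dlk1-Dio3* locus with differences among the most stable found there.
miR-494-3p: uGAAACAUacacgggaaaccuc
miR-485-3p: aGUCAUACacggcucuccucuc

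The *Dnmt*-null libraries held 272867, 488108 and 280116 miRNA counts, and the *Dnmt3a/3b*-DKO libraries 882430 to 1486438. A count of 3 was therefore worth 6.15 to 11.0 CPM (counts per 1000000) in the former and 2.02 to 3.40 in the latter, so low miRNAs were seen less finely in *Dnmt*-null. No pair of libraries of a group differed by as little as sampling noise. The label was checked against marker miRNAs. The miR-302 cluster took 14.6% ± 3.45 (SD, n = 3) of the counts in *Dnmt*-null and 22.2% ± 0.335 (SD, n = 4) in *Dnmt3a/3b*-DKO, and the *Sfmbt2* cluster, a trophoblast-rich imprinted group, took 1.52% to 3.12% and 0.851% to 1.99%. In bulk tissue, fewer cells of a type and less RNA per cell cannot be told apart.

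Of the 652 miRNAs, 37 were higher (5.67%) and 56 lower (8.59%) in *Dnmt*-null, in all 93 (14.3%). A call needed a log2 fold change beyond 0.5 and a Benjamini-Hochberg adjusted p under 0.05 in edgeR's quasi-likelihood test, and the values below are CPM after normalization by the trimmed mean of M values (TMM). At an unadjusted p under 0.05, 51 were higher (7.82%) and 88 lower (13.5%). Libraries of the groups did not overlap for 79 miRNAs higher (12.1%) and 126 lower (19.3%), among them 90 of the 93 called. The falls were the larger changes: 17 miRNAs fell by more than 2 on the log2 scale, and only 1, miR-3473c (named after its values were seen), rose by as much. Without *Dnmt3a/3b*-DKO library 2 or 3 the higher calls dropped to 21 and 19.

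The balance of rises and falls depended on the scaling, since the median of all 652 log2 fold changes was -0.19. Higher calls were 39.8% of all calls with TMM. They were 56.2% with relative log expression factors, 55.3% with library totals, 55.0% in DESeq2 and 65% when TMM left out the *Dlk1-Dio3* miRNAs, with the median of all miRNAs shifted up by 0.15 to 0.27. Calls that held in all 16 alternative settings with a value numbered 40, of which 13 were rises and 27 falls. Of these 13 rises, 10 came from *Dlk1-Dio3*, and the remainder were miR-292a-5p, miR-292b-3p and miR-5099.

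**Figure D1:**
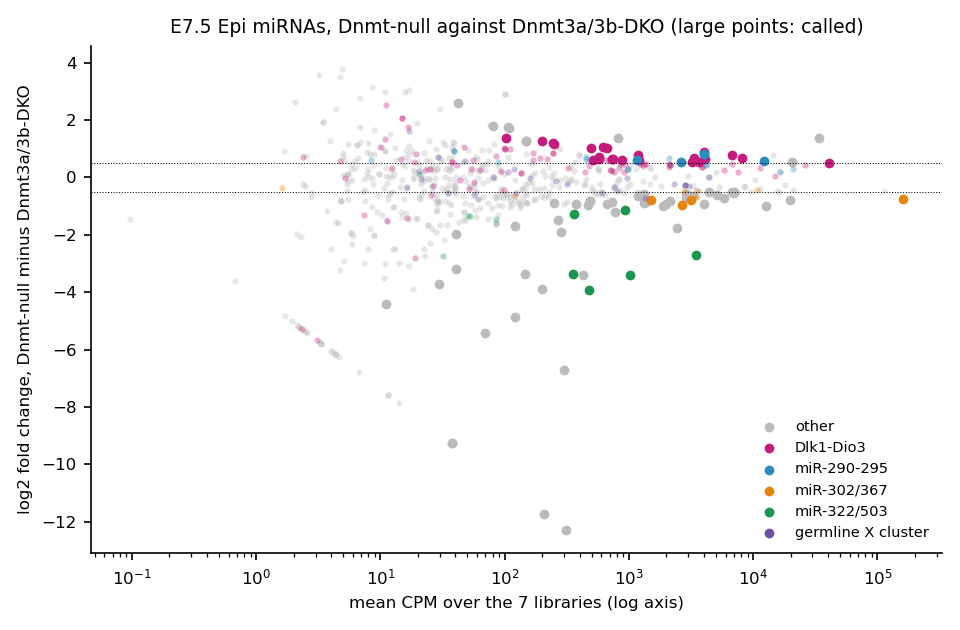
Log2 fold change of *Dnmt*-null minus *Dnmt3a/3b*-DKO (vertical axis) against mean CPM over the 7 libraries (horizontal log axis) for the 652 tested miRNAs, with clusters coloured, the called ones drawn large and dotted lines at 0.5 and -0.5. The called rises stay below 3 on the log2 scale and are mostly *Dlk1-Dio3* miRNAs, whereas the miR-322 cluster and scattered others extend far below. The row of small points on a sloping line holds miRNAs with no count in *Dnmt*-null, whose fitted values are not measured sizes.

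The call with the smallest p was in the cluster of miR-322 and miR-503, a group of X-linked miRNAs known from mesoderm and muscle progenitors. Of its members, 6 of 11 tested fell and none rose, where 8.59% of all tested miRNAs fell. The median was -1.43 against -0.19 for all miRNAs. miR-351-3p, at chrX:53053276-53053296 on the minus strand, had 48.6, 57.0 and 55.8 CPM in *Dnmt*-null and 851, 687, 753 and 979 in *Dnmt3a/3b*-DKO. The *Dnmt*-null libraries lay close together and far below the lowest *Dnmt3a/3b*-DKO library, which gave a log2 fold change of -3.92 ± 0.34 (the error is the SE, adjusted p = 1.73e-06). Controls held 437 to 843 CPM and *Dnmt1*-KO 197 to 463, so all 3 other genotypes stood above *Dnmt*-null.

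The other called arms of the cluster were also lowest in *Dnmt*-null, although the order of the remaining genotypes varied. In miR-450a-5p, for example, *Dnmt1*-KO libraries (1578 to 1777 CPM) stood above control and *Dnmt3a/3b*-DKO libraries. miR-351-5p, with the miR-125 seed, had 448, 1118 and 1000 CPM in *Dnmt*-null and 5117, 4866, 6147 and 6053 in *Dnmt3a/3b*-DKO (-2.69 ± 0.30, adjusted p = 3.02e-05). miR-322-3p, from the homologue of human miR-424, had 69.4, 210 and 195.1 CPM against 1461, 1388, 1997 and 1969 (-3.41 ± 0.40, adjusted p = 4.48e-05). In neither did the groups overlap, and *Dnmt*-null library 1 was the lowest each time. miR-503-3p fell by 3.36 on the log2 scale and miR-450a-5p by 1.13, and the sixth member called was miR-450b-5p at -1.27 (named after its values were seen). Together the cluster took 0.130% to 0.282% of the counts in *Dnmt*-null and 0.884% to 1.16% in *Dnmt3a/3b*-DKO. With each other edgeR scaling 6 were lower, and DESeq2 called 7.

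miR-483, encoded in an intron of the imprinted growth factor gene *Igf2* (hairpin at chr7:142654924-142654996, minus strand), was not detected in *Dnmt*-null Epi. miR-483-5p had 0 counts in the 3 *Dnmt*-null libraries and 551, 442, 629 and 600 CPM in *Dnmt3a/3b*-DKO, at least 63.6-fold lower when 3 counts a library are taken as the floor (adjusted p = 0.000408). miR-483-3p also had 0 counts in each, against 187 to 457 CPM, at least 42.6-fold lower (adjusted p = 0.000143). The *Dnmt1*-KO libraries held 0 to 109 CPM of the 5p arm and 0 to 23.6 of the 3p arm, whereas controls held 608 to 801 and 900 to 944. Both arms were thus low in the genotypes without DNMT1 and present in those with it. Of the 9 tested miRNAs in the list of imprinted genes outside *Dlk1-Dio3* and the *Sfmbt2* cluster, these 2 were called. Over all tested miRNAs 8.59% fell.

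Some miRNAs known from mesenchyme and muscle also fell. miR-143-3p, a smooth muscle and mesenchymal miRNA, had 6.94, 39.2 and 17.4 CPM in *Dnmt*-null and 324, 226, 305 and 511 in *Dnmt3a/3b*-DKO (-3.90 ± 0.57, adjusted p = 0.000244). Its neighbour miR-145a-3p had 0, 5.35 and 17.4 CPM against 140.9 to 278 (-4.85 ± 0.70, adjusted p = 0.000226). miR-133a-3p, a heart and skeletal muscle miRNA, had 20.8, 30.3 and 17.4 CPM against 293, 85.5, 202 and 394 (-3.37 ± 0.65, adjusted p = 0.00189). The groups stayed apart for all of these, though *Dnmt3a/3b*-DKO library 2 was low for miR-133a-3p. Over the mesenchymal list 2 of 8 tested members fell (median -2.77) and over the cardiac and muscle list 1 of 3 (median -7.57, set by members with no count in *Dnmt*-null), where 8.59% of all tested miRNAs fell. The summed mesenchymal list was 0.00916% to 0.0182% of the counts in *Dnmt*-null and 0.0509% to 0.0961% in *Dnmt3a/3b*-DKO.

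Among the miRNAs of the *Hox* clusters, which mark posterior identity, 3 of 4 tested fell, where 8.59% of all tested miRNAs fell. The calls were not stable, with 2 lower with relative log expression factors, library totals or TMM without *Dlk1-Dio3*, 1 on thinned counts and 4 in DESeq2. Over the 16 alternatives, miR-10a-5p was called in 13, miR-615-3p in 10 and miR-10b-5p in 5. miR-10a-5p, next to *Hoxb4* (chr11:96317165-96317274), had 0, 10.7 and 0 CPM in *Dnmt*-null and 255, 69.6, 424 and 1398 in *Dnmt3a/3b*-DKO (-6.72 ± 1.84, adjusted p = 0.0179). miR-10b-5p, in the *Hoxd* cluster, had 146, 28.5 and 31.4 CPM against 312, 296, 750 and 1467 (-3.41 ± 1.11, adjusted p = 0.0444). The *Dnmt3a/3b*-DKO libraries ranged widely, with library 4 highest for both. miR-615-3p, at no more than 3 counts in each *Dnmt*-null library, was at least 13.9-fold lower. The levels were as uneven in *Dnmt1*-KO, where miR-10a-5p ran from 3.07 to 977 CPM.

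The marker lists of other germ-layer derivatives gave few calls, where 8.59% of all tested miRNAs fell. miR-375-3p, an endocrine and endoderm miRNA, fell (434, 472 and 2216 CPM against 2810 to 3994; -1.77 ± 0.42, adjusted p = 0.00714), with *Dnmt*-null library 3 standing near the *Dnmt3a/3b*-DKO range. It was the only one of 5 endoderm miRNAs called. Of the 5, 3 had positive values, and the median was 0.22 against -0.19 for all miRNAs. In the neural list, 2 of 10 entries fell, miR-219a-2-3p and miR-219b-5p, which have identical counts in all libraries and cannot be told apart (0 counts in *Dnmt*-null against 31.9 to 119 CPM; at least 7.77-fold lower, adjusted p = 0.00516). None of 14 blood and endothelial miRNAs was called, and at the unadjusted threshold 1 signal was lower, listed as miR-126a-3p and miR-126b-5p with identical counts. Their sum was 0.146% to 0.180% of the counts in *Dnmt*-null and 0.119% to 0.280% in *Dnmt3a/3b*-DKO. The study reports that the primitive streak failed to elongate in *Dnmt*-null embryos at the stage compared here. It describes gastrulation as normal in the other compared genotype. It also reports a smaller epiblast and primitive streak in *Dnmt*-null embryos than in controls. The compared Epi libraries thus came from embryos that differed in gastrulation. Whether the cell makeup of the dissected Epi differed between the genotypes, and its part in the falls above, was not tested.

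**Figure D2:**
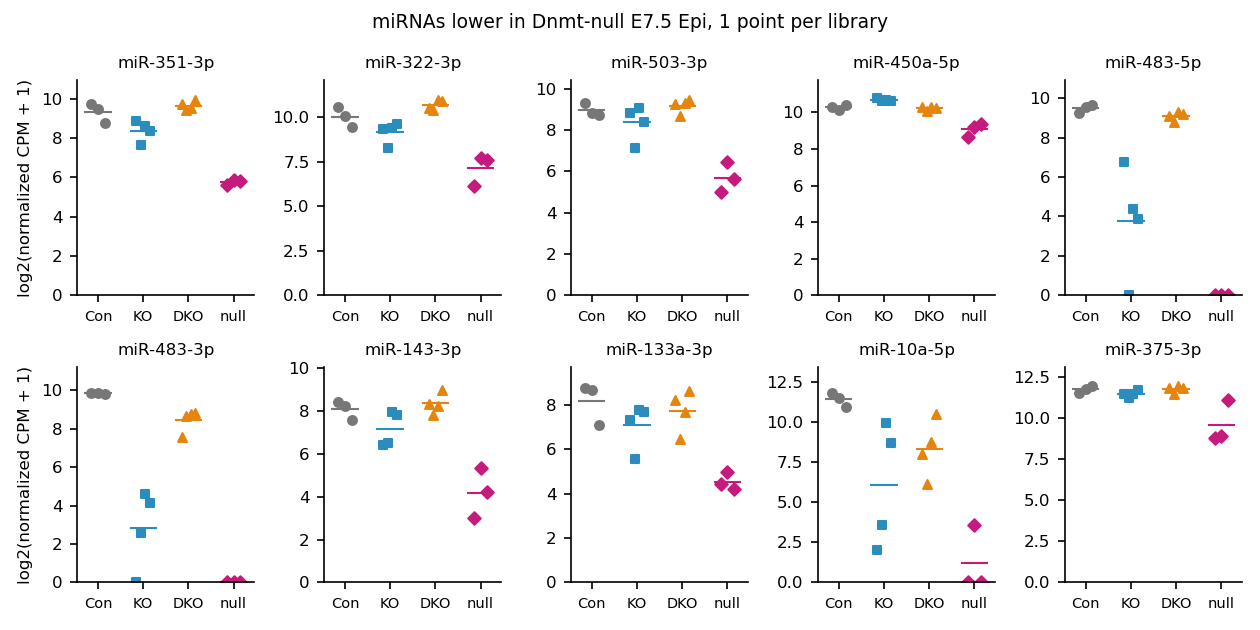
Normalized CPM as log2(CPM + 1) in each E7.5 Epi library of control (Con), *Dnmt1*-KO (KO), *Dnmt3a/3b*-DKO (DKO) and *Dnmt*-null (null) for 10 miRNAs that fell, 1 point per library with a line at the mean of the log values. *Dnmt*-null lies below *Dnmt3a/3b*-DKO in every panel, and for both miR-483 arms every *Dnmt1*-KO library is also below all control and *Dnmt3a/3b*-DKO libraries.

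The pluripotency clusters differed in sign. All 10 tested miR-302 arms had negative values and 4 fell (median -0.66), and all 18 miR-290-295 entries had positive values and 5 rose (median 0.58). Over all tested miRNAs 8.59% fell and 5.67% rose. The signs of both clusters held in each scaling tried, but only 2 miR-302 arms were called when TMM left out *Dlk1-Dio3*. With each of the 7 libraries left out in turn, miR-292a-5p and miR-292b-3p were called 7 times. In the same leave-outs miR-291a-5p was called 4 times, miR-294-5p 2 times and miR-295-5p 1 time. miR-302b-3p, the most abundant miRNA of the tissue (hairpin at chr3:127545228-127545301), had 95435, 97389 and 152950 CPM in *Dnmt*-null and 195015 to 196743 in *Dnmt3a/3b*-DKO (-0.76 ± 0.14, adjusted p = 0.00114). The *Dnmt*-null libraries were all lower, with library 3 nearest. miR-302c-5p (-0.96 ± 0.16, adjusted p = 0.000433), miR-302a-3p (-0.78) and miR-302c-3p (-0.77) were called as well.

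On the other side, miR-291a-5p had 15201, 16095 and 12876 CPM in *Dnmt*-null and 9646, 10998, 10887 and 7999 in *Dnmt3a/3b*-DKO (0.58 ± 0.17, adjusted p = 0.031). miR-292a-5p had 4770, 5408 and 5342 CPM against 2418 to 3885 (0.82 ± 0.18, adjusted p = 0.00516). Its count equals that of the antisense entry miR-292b-3p in every library, so the call stands for 1 signal. The miR-290-295 arms with the shared seed did not pass, and the called ones carry other seeds, so a rise of that seed was not shown. miR-295-3p, the most abundant of them, had 23331, 24001 and 20720 CPM against 15194, 20794, 20559 and 17877 (0.29 ± 0.14, adjusted p = 0.216), and miR-294-3p had 0.63 ± 0.26 (adjusted p = 0.129, named after its values were seen).

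The summed miR-290-295 cluster was 9.17%, 10.2% and 8.15% of the counts in *Dnmt*-null against 5.61% to 6.86% in *Dnmt3a/3b*-DKO. The ratio of miR-290-295 to miR-302 counts, which needs no scaling between libraries, was 0.766, 0.766 and 0.440 in *Dnmt*-null, against 0.252 to 0.304 for *Dnmt3a/3b*-DKO. Control Epi ranged from 0.211 to 0.225 and *Dnmt1*-KO Epi from 0.251 to 0.437. At E6.5 the same ratio was 1.02 to 1.30 in *Dnmt*-null and 0.617 to 1.22 in *Dnmt3a/3b*-DKO Epi, where the groups overlapped. In E7.5 Exe it was 4.22 to 7.12 in *Dnmt*-null and 3.198 to 6.07 in *Dnmt3a/3b*-DKO. The *Dnmt*-null E7.5 Epi libraries were thus above the other E7.5 Epi groups and below both E6.5 *Dnmt*-null Epi and E7.5 Exe. The summed *Sfmbt2* cluster, abundant in trophoblast, was 2.31%, 3.12% and 1.52% of the counts in these *Dnmt*-null libraries against 0.851% to 1.99%, overlapping, and its part in the ratio was not tested.

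For the miR-125 seed a call was made in 1 direction only. miR-351-5p fell, as above, whereas miR-125a-5p, named here because it carries the same seed and after its values were seen, had 22318, 9892 and 23371 CPM in *Dnmt*-null and 13116, 10839, 12111 and 7295 in *Dnmt3a/3b*-DKO (0.77 ± 0.31, adjusted p = 0.111). *Dnmt*-null library 2 lay inside the *Dnmt3a/3b*-DKO range, so a rise was not shown. Its passenger arm miR-125a-3p did rise (149, 123 and 118 CPM against 12.3 to 62.9; 1.78 ± 0.53, adjusted p = 0.0286), and so did miR-99b-5p from the same primary transcript (24039, 25915 and 23246 CPM against 18251, 20055, 15348 and 13038; 0.55 ± 0.14, adjusted p = 0.00989). With each of the 7 libraries left out in turn, miR-125a-3p was called 3 times and miR-99b-5p 5 times. let-7e-5p, encoded between them, was not called (-0.06 ± 0.36, adjusted p = 0.951). Of the 7 tested miR-99, miR-100 and miR-125 arms only miR-125a-3p and miR-99b-5p, 2 in all, were called, and the median was 0.65. Over all tested miRNAs 5.67% rose.

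Over the 543 tested miRNAs with a RefSeq mature sequence there were 446 seeds, and 62 were shared by at least 2 miRNAs. Of the shared seeds, 20 had a called member and none had calls in both directions. miR-92b-3p fell (9015, 6380 and 8834 CPM against 13705 to 18396; -1.002 ± 0.174, adjusted p = 0.000768; named after its values were seen), as did miR-25-3p with the same seed (-0.50 ± 0.10, adjusted p = 0.00249), though that call, at the edge of the fold threshold, was made in only 3 of the 16 alternatives. The far more abundant miR-92a-3p of that seed had 98251, 81909 and 97534 CPM against 123324 to 139578, which did not overlap but gave a log2 fold change of -0.47 ± 0.09, inside the threshold of 0.5 (adjusted p = 0.00178).

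**Figure D3:**
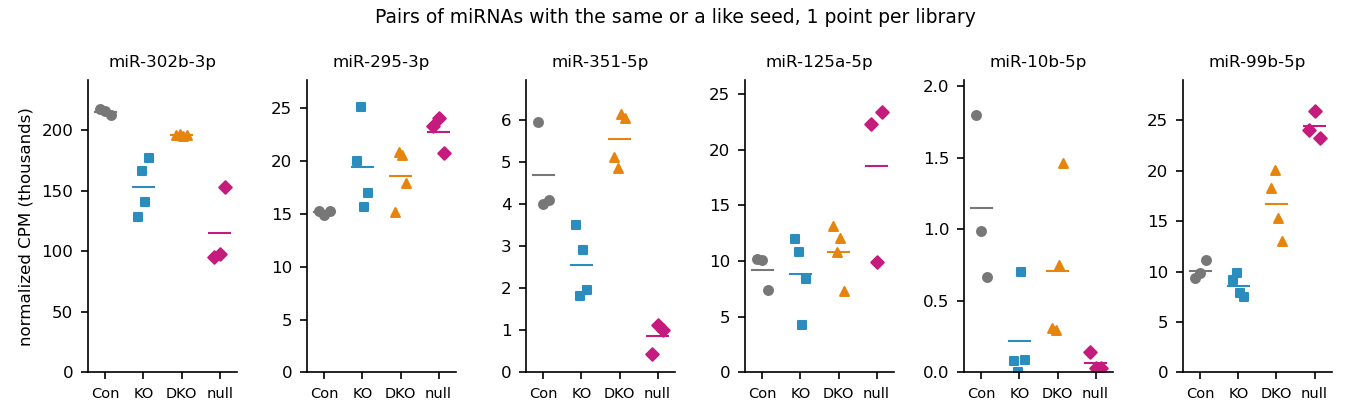
Normalized CPM in units of 1000 (linear axes from 0, each panel with its own scale) in each E7.5 Epi library of the 4 genotypes, with a line at the mean. miR-302b-3p and miR-295-3p share 1 seed and miR-351-5p and miR-125a-5p another, whereas miR-10b-5p and miR-99b-5p have similar seeds. In each pair *Dnmt*-null lies low for the first miRNA, and of the second miRNAs only miR-99b-5p passed the test.

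The *Dlk1-Dio3* locus on chromosome 12 encodes a large imprinted group of miRNAs expressed from the maternal allele. Of its 99 tested miRNAs 23 rose and 0 fell, with 30 and 0 at the unadjusted threshold, and the median was 0.52. Over all 652 tested miRNAs 5.67% rose, 7.82% at the unadjusted threshold, and the median was -0.19. The calls were spread over the locus: 16 of 66 on the *Mirg* side, 4 of 19 antisense to *Rtl1*, 1 of 6 in *Rian*, 1 of 6 in *Meg3*, and miR-3544-3p with no host assigned. The count varied with the libraries, since it was 11 and 12 without *Dnmt3a/3b*-DKO library 2 or 3 and 35 without library 1, while the median stayed between 0.49 and 0.72.

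Examples show a modest and even difference. miR-494-3p had 9105, 8382 and 8279 CPM in *Dnmt*-null and 4796, 5146, 4721 and 5289 in *Dnmt3a/3b*-DKO (0.78 ± 0.12, adjusted p = 0.000316). miR-485-3p had 6151, 5430 and 4258 CPM against 2510 to 3297 (0.87 ± 0.14, adjusted p = 0.000339). miR-127-3p, which is antisense and fully complementary to the *Rtl1* transcript, had 56677, 43577 and 44105 CPM against 32565 to 36132, at the edge of the threshold (0.50 ± 0.13, adjusted p = 0.0117). In each of them every *Dnmt*-null library was above every *Dnmt3a/3b*-DKO library. miR-409-3p had 0.42 ± 0.09 (adjusted p = 0.00255) and did not reach the fold threshold.

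The largest rises of the locus were in less abundant arms. miR-412-5p rose by 1.38 ± 0.43 (adjusted p = 0.0386), miR-369-3p by 1.27 ± 0.32 (adjusted p = 0.0106), miR-770-5p, encoded in *Meg3*, by 1.05 ± 0.23 (adjusted p = 0.00493), and miR-377-3p by 1.03 ± 0.21 (adjusted p = 0.00333). For each of these arms every *Dnmt*-null library was above every control library. miR-337-5p and miR-3544-3p, annotated on opposite strands, had nearly the same counts in each library and count as 1 uncertain signal (1.16 and 1.18). There, controls (214 to 321 CPM of miR-337-5p) overlapped *Dnmt*-null (261 to 465), and *Dnmt3a/3b*-DKO (130 to 176) was the low group. Of the 11 tested arms of the 6 miRNA genes that the study deleted in haploid cells, 3 rose and 0 fell, with a median of 0.61. These 3 were miR-127-3p, miR-541-5p (0.67) and miR-369-3p, where 5.67% of all tested miRNAs rose. With relative log expression factors, library totals, TMM without *Dlk1-Dio3* or DESeq2 6 were higher, and 7 on thinned counts. Every *Dnmt*-null library was above every control library for miR-127-3p and miR-369-3p. For miR-541-5p controls (9636 to 11463 CPM) were as high as *Dnmt*-null (9025 to 11435), and *Dnmt3a/3b*-DKO was the low group (5953 to 7015). The study chose the deleted miRNAs on libraries of this series, so their count is not independent evidence of a direction. let-7b-5p, the only one of them outside the locus, had 6.94, 128 and 17.4 CPM against 3.35 to 15.6, and *Dnmt*-null library 2 set its log2 fold change of 2.38 ± 1.44 (adjusted p = 0.305).

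**Figure D4:**
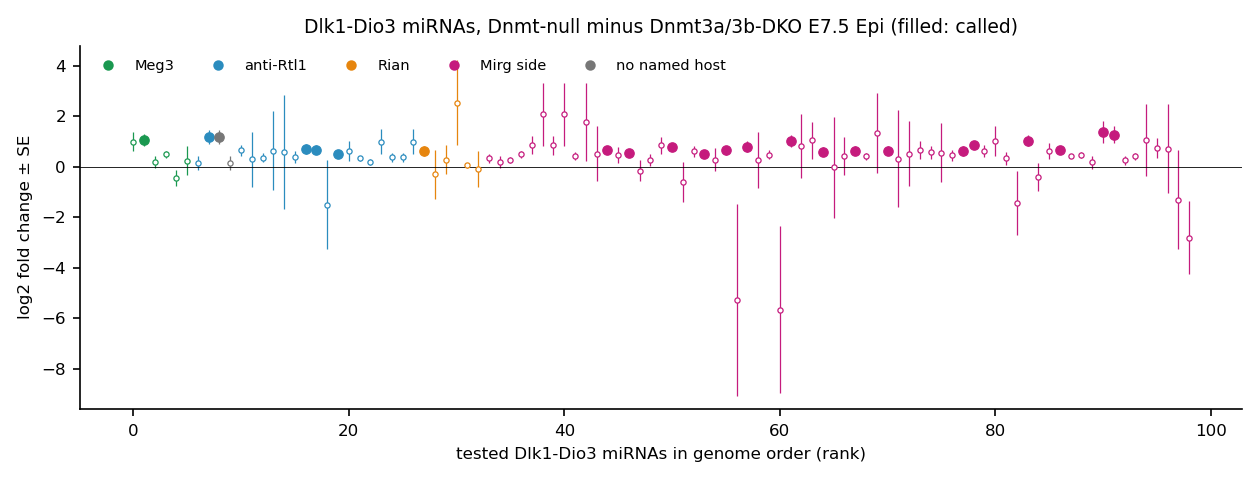
Log2 fold change of *Dnmt*-null minus *Dnmt3a/3b*-DKO with its SE (vertical axis) for the 99 tested *Dlk1-Dio3* miRNAs in genome order (horizontal axis, rank), coloured by host transcript and filled where called. The 23 called miRNAs lie between 0.5 and 1.4 along the whole row, and the 2 points below -5 are miRNAs with no count in *Dnmt*-null.

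Other abundant miRNAs had smaller differences. miR-26a-5p fell (13642, 14448 and 13938 CPM against 22911 to 25581; -0.79 ± 0.11, adjusted p = 0.000226). The miR-30 family had 5 of 11 arms lower, such as miR-30a-5p at -0.61 and miR-30d-5p at -0.52, where 8.59% of all tested miRNAs fell. But only 1 was called with relative log expression factors or library totals and 0 when TMM left out *Dlk1-Dio3*. miR-191-5p (-0.42) and miR-182-5p (-0.26) did not pass. miR-5099 had the largest rise among abundant entries (62825, 33793 and 55966 CPM against 16008 to 26090; 1.39 ± 0.24, adjusted p = 0.000798), and controls (41982 to 53498) and *Dnmt1*-KO (35211 to 79620) were as high as *Dnmt*-null. It is one of the entries listed as low-confidence miRNAs, of which 2 of 4 rose, where 5.67% of all tested miRNAs rose.

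The remaining lists gave few or no calls, where 8.59% of all tested miRNAs fell and 5.67% rose. Falls were called in miR-106b-25 and miR-106a-363 (2 of 13), miR-130 and miR-301 (2 of 8), miR-15, miR-16 and miR-195 (1 of 8) and miR-221 and miR-222 (1 of 4). Rises were called in the *Sfmbt2* cluster (2 of 42, miR-467a-3p and miR-467d-3p, identical in counts). Counts this small beside those shares are not read as results about the families. With relative log expression factors, library totals, TMM without *Dlk1-Dio3* or thinned counts, 0 were called in miR-106b-25 and miR-106a-363 and 0 in miR-15, miR-16 and miR-195. No member was called in let-7 (9 tested), miR-17-92 (12), miR-181 (7), miR-183, miR-96 and miR-182 (6), miR-200, miR-141 and miR-429 (9), miR-23, miR-27 and miR-24 (9), miR-29, miR-148 and miR-152 (9), miR-34 (3) or the X-linked germline cluster (27). By chromosome, 14 of 83 X-linked miRNAs fell (16.9% against 8.59% overall) and 1 rose. Without the miR-322 and germline clusters 8 of 45 fell (17.8%).

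The same step, loss of DNMT1, could be read with DNMT3A and DNMT3B present, from *Dnmt1*-KO against control, which shares no library with the comparison above. There, 52 miRNAs were higher (7.98%) and 45 lower (6.9%). Of the 93 miRNAs called in *Dnmt*-null against *Dnmt3a/3b*-DKO, 31 were also called in the same direction in *Dnmt1*-KO against control and 0 in the other direction. These included 8 of the 23 *Dlk1-Dio3* miRNAs, such as miR-485-3p (0.95), miR-127-3p (0.82) and miR-770-5p (0.86), and the locus had a median of 0.48 in *Dnmt1*-KO against control.

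The interaction, the difference between the steps, was called for 28 miRNAs (4.29%), 25 of them negative. The largest block, 14, was the germline cluster on X, whose miRNAs are abundant in testis. miR-470-5p stood at 163 to 552 CPM in control libraries and at 2311 to 2927 CPM in those of *Dnmt1*-KO. The *Dnmt3a/3b*-DKO libraries held 3476 to 4889 CPM, and 4258 to 4447 CPM were found for *Dnmt*-null, inside that range. Losing DNMT1 thus went with a log2 fold change of 3.07 in the first step and -0.00 in the second (difference -3.07 ± 0.42, adjusted p = 0.000189). The cluster's median was 2.77 in the first step, 3.73 in *Dnmt3a/3b*-DKO against control and -0.22 in *Dnmt*-null against *Dnmt3a/3b*-DKO.

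The 6 called miR-322 arms went the other way, with the deeper change when DNMT3A and DNMT3B were absent. miR-351-3p differed by -0.94 in the first step and -3.92 in the second (difference -2.97 ± 0.42, adjusted p = 0.000239), and miR-450a-5p by 0.40 and -1.13 (difference -1.53 ± 0.24, adjusted p = 0.000416). miR-143-3p (difference -3.11 ± 0.71, adjusted p = 0.0115) and miR-145a-3p (difference -5.06 ± 0.86, adjusted p = 0.00101) were called in the same direction. Of *Dlk1-Dio3* only miR-434-5p (-0.84) and miR-370-3p (-0.65), named after their values were seen, differed between the steps, so for the other 97 a difference between the steps was not shown. miR-99b-5p (0.78 ± 0.19, adjusted p = 0.0229) and miR-200c-3p (0.95 ± 0.18, adjusted p = 0.00229) were positive, as was miR-294-5p (1.01). miR-200c-3p fell by 0.95 on the log2 scale in the first step and had 0.00 ± 0.13 in the second. Leaving out any of the 7 libraries gave 26 to 31 interaction calls.

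**Figure D5:**
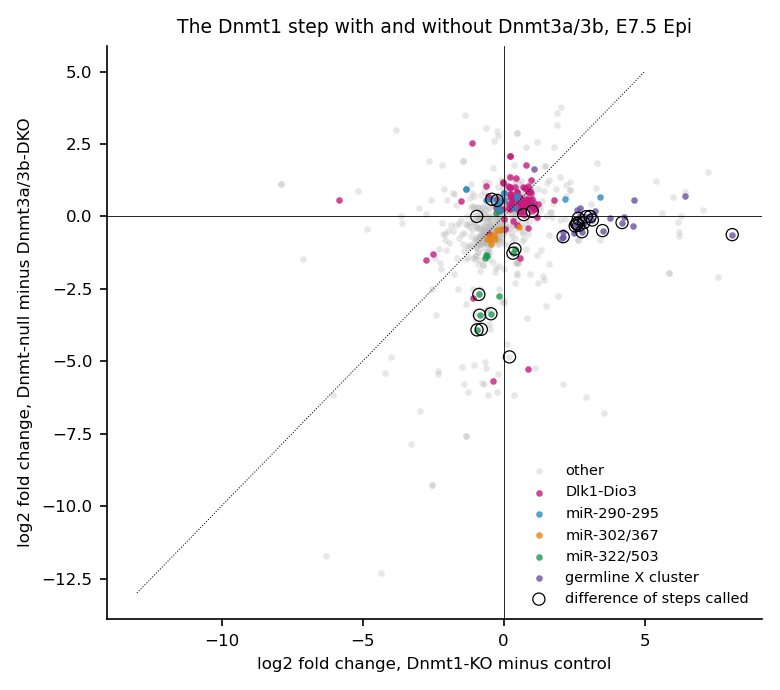
Log2 fold change of *Dnmt*-null minus *Dnmt3a/3b*-DKO (vertical) against *Dnmt1*-KO minus control (horizontal) for the 652 tested miRNAs of E7.5 Epi, with clusters coloured, black rings around the 28 whose difference between the steps was called, and a dotted line of equal change. The germline X cluster lies far to the right near 0 on the vertical axis, miR-322 lies low, and most *Dlk1-Dio3* miRNAs are above 0 on both axes.

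Whether the difference was the same in Exe was tested in a fit of the 30 E7.5 Epi and Exe libraries with 728 miRNAs. In it normalized values differ slightly from those above. It differed between the tissues for 6 miRNAs (0.824%). miR-351-3p had 649 to 1577 CPM in the 4 *Dnmt*-null Exe libraries and 1421 to 1899 in the 4 *Dnmt3a/3b*-DKO Exe libraries, against 52.1, 64.98 and 62.3 in *Dnmt*-null Epi and 740 to 995 in *Dnmt3a/3b*-DKO Epi. The log2 fold change was -0.62 in Exe and -3.83 in Epi (difference -3.21 ± 0.41, adjusted p = 7.92e-06). Differences in the same direction were called for miR-322-3p (-2.31 ± 0.51), miR-503-3p (-2.16 ± 0.46) and miR-351-5p (-1.52 ± 0.35), so the miR-322 fall was deeper in Epi. miR-483-5p was 51.9 to 227 CPM in *Dnmt*-null Exe against 1379 to 1840, lower there as well (-3.69 ± 0.64) but not down to 0. miR-142a-5p, a blood cell miRNA, was the only positive one (4.16 ± 1.02, adjusted p = 0.0413). In Exe it was lower in *Dnmt*-null, at 23.3 to 572 CPM against 991 to 2196. In Epi it was 793 to 1129 CPM against 314 to 581, and the Epi fit above did not call it (0.98 ± 0.49, adjusted p = 0.219). The count ran from 1 to 8 when single libraries were left out, being 1 without *Dnmt3a/3b*-DKO library 4 or *Dnmt*-null library 1, 2 without *Dnmt3a/3b*-DKO library 3 and 3 without its library 1.

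The difference was also set against that in E6.5 Epi, in a fit of 30 Epi libraries with 572 miRNAs, and differed for 13 (2.27%). The E6.5 *Dnmt*-null libraries were shallow, at 45242 to 123169 counts, and library 1 was the shallowest and stood apart for some miRNAs. miR-351-3p had 609, 107, 81.8 and 67.6 CPM in E6.5 *Dnmt*-null and 23.1, 41.6, 5.48 and 18.4 in E6.5 *Dnmt3a/3b*-DKO, higher in *Dnmt*-null, the opposite of E7.5 (difference -6.89 ± 0.87, adjusted p = 2.51e-06). Without the shallowest library the difference was -5.64 (adjusted p = 5.89e-07). The E6.5 values rest on 6 to 34 counts in *Dnmt*-null and 1 to 8 in *Dnmt3a/3b*-DKO.

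miR-143-3p (-4.42 ± 1.01, adjusted p = 0.0153) and miR-322-3p (-4.06 ± 0.94, adjusted p = 0.0153) also differed between the stages, with and without that library. miR-483-5p was called with it (-12.17) and not without it (-8.87, adjusted p = 0.0996), since E6.5 *Dnmt*-null library 1 alone held 1004 CPM. Of the 9 positive differences, 6 were miR-290-295 entries, of which miR-290a-5p and miR-290b-3p gave the same values. miR-291a-5p, for instance, had 10468 to 18699 CPM in E6.5 *Dnmt*-null against 18853 to 26360 in E6.5 *Dnmt3a/3b*-DKO, so that its log2 fold change was -0.52 at E6.5 and 0.78 at E7.5 (difference 1.30 ± 0.28, adjusted p = 0.0137). With relative log expression factors 5 of the 13 were called, 4 of them negative. Leaving out single E7.5 libraries gave 5 to 9 calls, of which 4 to 9 were among the 13. The count was 6 without *Dnmt3a/3b*-DKO library 1 or 3, 5 without its library 4, and 5, 8 and 6 without *Dnmt*-null library 1, 2 and 3.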

How the data were processed

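Small RNA was sequenced by CAS-seq, a low-input protocol with a Cas9 treatment step. Per the labels and methods, the authors trimmed reads with fastp 0.20.1, mapped them to GRCm38 with Bowtie 1.2.1.1 and then to miRBase mature sequences, and deposited raw counts per mature miRNA. Whether counting used strand is not given in the sources used here. The deposited counts were analysed with edgeR 4.0.16 in R 4.3.3: filterByExpr with a count minimum of 10, TMM factors, and 1 quasi-likelihood fit over the 14 E7.5 Epi libraries, with Benjamini-Hochberg adjustment over the 652 miRNAs tested. Standard errors are the log2 fold change divided by the root of its F statistic. Differences between steps, tissues and stages were contrasts of the same kind. The script was tested on simulated data. DESeq2 1.42.0, other factors, filters, a replicate block, thinned counts, single libraries left out, and 2 settings chosen after seeing the data (identical entries kept once, E6.5 *Dnmt*-null library 1 left out) were the alternatives. 1487 of the 1504 names matched a gene.

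The members and miRNA lists were chosen with earlier results of these data known, so list counts are descriptions. miRNAs named are the 12 largest rises and falls with groups apart and at least 10 counts, the 10 most abundant, those the study deleted with miR-296-3p, up to 4 examples of each list, and up to 5 of each difference test. Exceptions are marked as chosen after their values were seen. The replicate numbers did not pair the libraries.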

Additional observations from a re-analysis of the deposited data

Results flagged for a closer look

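Loss of DNMT1 had different effects with and without DNMT3A and DNMT3B, by the interaction test, for the germline X miRNAs miR-470-5p (-3.07), miR-741-3p (-2.97) and miR-880-3p (-3.995), for miR-351-3p (-2.97), miR-351-5p (-1.81), miR-322-3p (-2.56), miR-503-3p (-2.91) and miR-450a-5p (-1.53), for miR-143-3p (-3.11) and miR-145a-3p (-5.06), and, in the positive direction, for miR-99b-5p (0.78) and miR-200c-3p (0.95), all on the log2 scale.

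The difference between *Dnmt*-null and *Dnmt3a/3b*-DKO was not the same in Epi and Exe at E7.5 for miR-351-3p (-3.21), miR-503-3p (-2.16), miR-322-3p (-2.31), miR-351-5p (-1.52), miR-483-5p (-8.64) and miR-142a-5p (4.16). It was not the same in E7.5 and E6.5 Epi for miR-351-3p (-6.89), miR-483-5p (-12.17), miR-143-3p (-4.42), miR-322-3p (-4.06), miR-291a-5p (1.30), miR-295-3p (1.01), miR-295-5p (1.13) and miR-5099 (1.57). The fitted values of miR-483-5p are not sizes, because *Dnmt*-null E7.5 Epi has no count.

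A search for 1 library standing apart was run only within the 4 *Dnmt3a/3b*-DKO libraries. Among the miRNAs named it flagged miR-92a-3p, at 139578 CPM in library 1, above the other libraries. By chance about 1 in 20 groups of values has such a library. The other groups were not searched. In *Dnmt*-null, library 3 of miR-375-3p (2216 CPM against 434 and 472) and library 2 of let-7b-5p (128 CPM against 6.94 and 17.4) lay far from the rest.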

How the results depend on the processing

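All 37 rises remained called in DESeq2, with relative log expression factors, with library totals, with TMM without *Dlk1-Dio3*, with a mean of at least 10 counts and on thinned counts, where 35 to 47 of the 56 falls remained. With single libraries left out, 19 to 37 rises and 35 to 54 falls remained. Against 37 higher, 56 lower and 23 higher *Dlk1-Dio3* calls, 61 were higher and 42 of these in *Dlk1-Dio3* in DESeq2, where 1 named miRNA, miR-483-5p, had no adjusted p. With relative log expression factors 37 *Dlk1-Dio3* miRNAs were higher. With TMM computed without *Dlk1-Dio3*, 65 were higher, 35 lower and 45 of the higher in the locus. On counts thinned to 272867 a library, 64 were higher, 43 of them in the locus, and without a filter 60 were higher. At an unadjusted p under 0.05, 88 were lower. The locus median of 0.52 was 0.68 in DESeq2, 0.68 with relative log expression factors, 0.79 with TMM without the locus, 0.67 with library totals, 0.63 without a filter, 0.64 with a mean of at least 10 counts, 0.60 over the 7 libraries only, 0.75 thinned and 0.62 with identical entries kept once. Over single libraries left out, higher calls ran from 19 to 52, lower from 38 to 60, *Dlk1-Dio3* from 11 to 35 and the locus median from 0.49 to 0.72. The count of miRNAs differing between the *Dnmt1* steps was 51 without a filter. Between Epi and Exe it was 13 with TMM without *Dlk1-Dio3* and 18 without a filter, and 1 to 8 with single libraries left out. Between stages it was 5 with relative log expression factors and 5 to 16 with single libraries left out, 16 being the count without E6.5 *Dnmt*-null library 1. The cause of these shifts was not tested.

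The libraries share only a replicate number. With the number as a block, 25 were higher and 51 lower, with 19 *Dlk1-Dio3* miRNAs higher, a locus median of 0.55 2 miR-290-295 entries called instead of 5, 2 *Hox* miRNAs instead of 3, and 2 of the deleted miRNAs' arms instead of 3. Deviations of same-numbered *Dnmt*-null and *Dnmt3a/3b*-DKO libraries correlated between -0.0997 and 0.0496. Of 1947 values of single named miRNAs over the alternatives, 1729 kept direction and side of the threshold, 180 were weaker and 38 stronger, and no called value reversed. miRNAs that were not called took the other sign in 80 of 832 values. Depth limits miRNAs under about 10 CPM in *Dnmt*-null, where 7 of the falls had at most 3 counts in each library.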
